A study of Mus musculus with 8 samples.

Results

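The genes of the Nlrp3 inflammasome and the cytokines it releases were followed in whole liver of miR-223 knockout (miR-223KO) and wild-type (WT) mice. The set holds 8 genes, the sensor Nlrp3, the adaptor Pycard, the caspases Casp1 and Casp4, the cytokines Il1b and Il18, and the antagonists Il1rn and Il18bp. A probe was taken as a member when it was not a control and carried 1 of these symbols in the authors' processed table, which gave 11 of its 40646 probes. All 8 genes had at least 1 probe that could be tested, among 16755 genes and unnamed probes tested in all.

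The samples were 4 miR-223KO and 4 WT samples of liver RNA from male mice on a C57BL/6J background. Both groups had received a high-fat diet for 3 months. The labels name the knockout only as miR-223 KO and give neither its allele nor the age at the start of the diet. Each liver RNA was labelled with Cy5 and hybridised to its own 2-colour Agilent array beside a Cy3-labelled pool of mouse total RNA, so every value below is a log2 ratio of liver over that common reference. Nothing in the labels states that the livers came from separate animals, so the p-values cover only the spread among these samples, which may be technical.

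An inflammasome is a protein platform that forms when a cytosolic sensor such as Nlrp3 detects damage or infection. Pycard links the sensor to Casp1, a protease that cleaves the precursors of IL-1 beta and IL-18 and opens the membrane pore protein gasdermin D. Expression of Nlrp3 and Il1b is itself raised by a priming signal through Toll-like receptors and NF-kB. In liver the pathway is known mainly from Kupffer cells, monocyte-derived macrophages and neutrophils. MicroRNA miR-223 is abundant in myeloid cells and is known to bind the 3′ untranslated region of the Nlrp3 transcript and lower its expression.

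The deleted microRNA is shown with 5 of the probes: that of its known target Nlrp3, the overlapping pair of Pycard, whose readings differed, and the pair of Il1rn, of which no WT 3 or WT 4 spot was well above background. In the mature mmu-miR-223-3p, taken from RefSeq and placed at chrX:96242884-96242905 on the plus strand of GRCm38.p6, capitals mark the seed, bases 2 to 8. In both Pycard probes, capitals mark the 40 bases that they share. The Nlrp3 probe and the first Il1rn probe are shown by bases 1 to 30 of their 60, and the other probes whole.
mmu-miR-223-3p: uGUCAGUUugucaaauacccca
Nlrp3, probe A_52_P650540: cggccttacttcaatctgttgttcagctct
Pycard, probe A_51_P438821: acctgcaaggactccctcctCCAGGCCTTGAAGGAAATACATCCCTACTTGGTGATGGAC
Pycard, probe A_51_P438820: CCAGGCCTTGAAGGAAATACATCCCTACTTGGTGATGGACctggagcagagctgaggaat
Il1rn, probe A_52_P431159: tttcttgaccattcattttatcacttctaa
Il1rn, probe A_51_P307166: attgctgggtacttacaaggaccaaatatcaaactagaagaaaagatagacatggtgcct
The DNA letters that pair with the seed, AACTGAC, were found on the probe strand of 0 of the 11 member probes and of 150 of the 40646 probes in the table (0.369%). The probes sample only 60 bases of each transcript, so this says nothing of sites elsewhere in it. Of the probes in the table, 0 are named for Mir223, and the deletion itself was not checked here.

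None of the 8 genes differed between miR-223KO and WT liver past the test. In limma with Benjamini-Hochberg adjustment over all 16755 genes and probes, 0 of 8 members were called, with adjusted p of 0.98 to 0.997, and 0 had an unadjusted p under 0.05. Over everything tested 2 were called (0.0119%), 1 higher and 1 lower (0.00597% each), and 4.67% had an unadjusted p under 0.05. The members' log2 fold changes, miR-223KO against WT, ran from -0.08 to 0.22, with 6 higher and 2 lower. Their median was 0.09, against -0.01 over all tested, of which 48.2% had a positive fold change. The median size of a change, whatever its sign, was 0.10 among the members and 0.15 over all tested, and the median standard deviation (SD) within a group was 0.20 and 0.29. The ranges of the groups overlapped for every member, while they did not overlap for 3.09% of all tested.

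**Figure D1:**
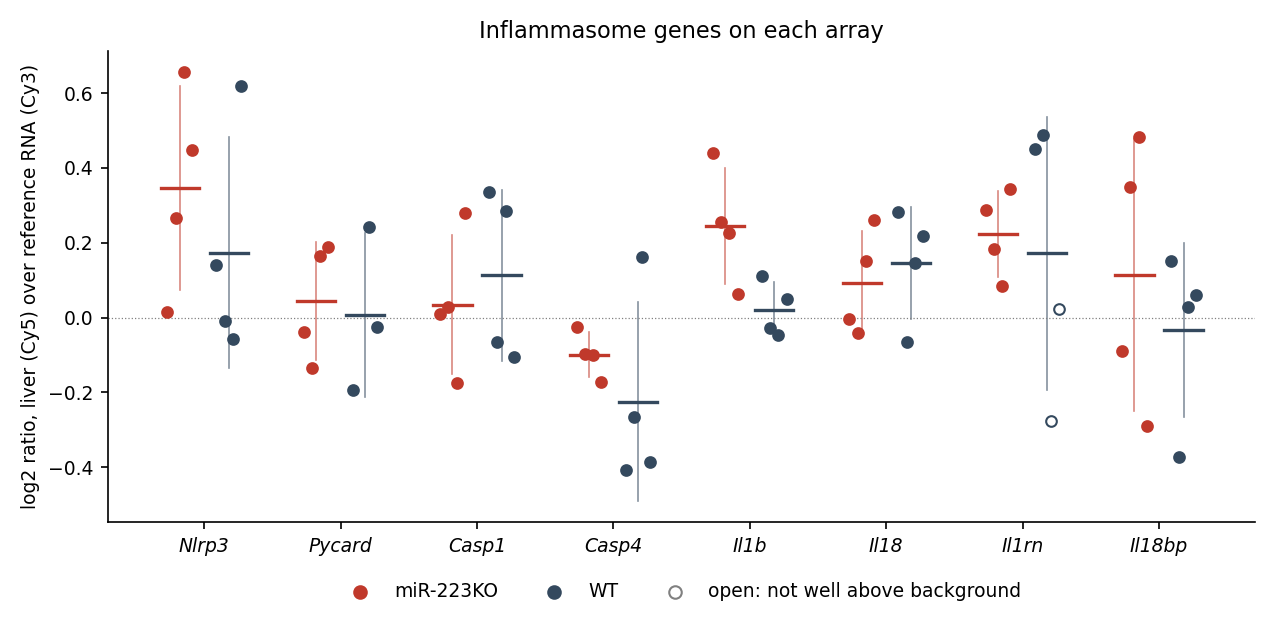
Each point is 1 array, placed by the log2 ratio of liver (Cy5) over reference RNA (Cy3) for the tested probe of each gene, with miR-223KO left of WT, a bar at the group mean and a line of 1 SD either way. The groups overlap in all 8 genes, and the open points, WT 3 and WT 4 of Il1rn, were not well above background.

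Nlrp3, the sensor that miR-223 is known to target, showed no call. Its log2 ratios were 0.01, 0.27, 0.66 and 0.45 in miR-223KO livers 1 to 4, against 0.14, -0.01, -0.06 and 0.62 in WT livers 1 to 4. WT 1, 2 and 3 lay below miR-223KO 2, 3 and 4, and WT 4 lay within the upper miR-223KO range. The means were 0.35 ± 0.27 in miR-223KO and 0.17 ± 0.31 in WT (SD, n = 4 each). The log2 fold change was 0.17 with a standard error (SE) of 0.21 (limma adjusted p = 0.98), a 1.13-fold difference whose 95% interval runs from 0.832 to 1.53. A difference of that upper size, or a small decrease, could not be told from no difference with these arrays. Taken apart, liver RNA in Cy5 differed by 0.49 and the reference RNA in Cy3 by 0.31, so part of the Cy5 difference also stood in the reference channel as normalised.

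Single arrays moved the value of Nlrp3. In the authors' deposited table WT 4 read 1.35, against -0.09, 0.15, 0.55 and 0.41 in miR-223KO 1 to 4 and 0.01, -0.14 and -0.19 in WT 1 to 3, and its deposited log2 fold change was -0.00411. With 1 array left out at a time the log2 fold change stayed positive, from 0.07 (without miR-223KO 3) and 0.10 (without WT 3) to 0.28 (without miR-223KO 1) and 0.32 (without WT 4), and its limma adjusted p stayed at 0.948 or above. The Nlrp3 spot was well above background on all 8 arrays, with Cy5 at 2.58 to 5.36 times the local background in miR-223KO and 1.96 to 4.17 times in WT.

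Pycard (ASC), the adaptor that joins sensor and caspase, was measured by a pair of overlapping probes. The brighter one, A_51_P438821, read -0.04, -0.14, 0.16 and 0.19 in miR-223KO 1 to 4, against -0.19, 0.24 and -0.03 in WT 1, 3 and 4, with the spot of WT 2 left out for an outlier flag. The 2 groups covered nearly the same range, with means of 0.04 ± 0.16 (SD, n = 4) in miR-223KO and 0.01 ± 0.22 (SD, n = 3) in WT. The log2 fold change was 0.04 (SE 0.20, limma adjusted p = 0.997), with a 95% interval of -0.39 to 0.46.

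The second Pycard probe, shifted along the transcript and sharing 40 bases, stood on the other side of 0. Probe A_51_P438820 read -0.18, -0.11, -0.18 and -0.06 in miR-223KO 1 to 4, against -0.12, 0.21 and -0.05 in WT 1, 3 and 4. In a fit with every probe on its own, its log2 fold change was -0.14 (SE 0.19, limma adjusted p = 0.987). The 95% interval of -0.54 to 0.25 includes the value of the first probe. This probe was the dimmer of the pair, at 1.42 to 5.28 times the local Cy5 background over the 8 arrays against 7.35 to 19.9 times, and it was well above background on 4 miR-223KO and 2 WT arrays. The authors' deposited log2 fold changes parted in the same way, at 0.04 and -0.39.

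Casp1, the inflammasome protease, was 1 of 2 members with a negative fold change. It read 0.01, 0.03, -0.17 and 0.28 in miR-223KO 1 to 4, against 0.34, -0.07, 0.29 and -0.10 in WT 1 to 4. The WT values formed a higher and a lower pair, with 3 of the miR-223KO values between them and miR-223KO 3 below. The means were 0.03 ± 0.19 in miR-223KO and 0.11 ± 0.23 in WT (SD, n = 4 each), and the log2 fold change was -0.08 (SE 0.19, limma adjusted p = 0.992, 95% interval -0.47 to 0.32). With 1 array left out it ran from -0.16 (without miR-223KO 4) to -0.00377 (without WT 1).

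Casp4, the mouse caspase-11 that senses cytosolic lipopolysaccharide in the noncanonical pathway, showed no call. Its log2 ratios were -0.02, -0.10, -0.10 and -0.17 in miR-223KO 1 to 4, against -0.41, -0.27, 0.16 and -0.39 in WT 1 to 4. WT 1, 2 and 4 lay below every miR-223KO liver and WT 3 lay above them all. With means of -0.10 ± 0.06 in miR-223KO and -0.22 ± 0.27 in WT (SD, n = 4 each), the log2 fold change was 0.13 (SE 0.18, limma adjusted p = 0.985, 95% interval -0.26 to 0.51). With 1 array left out at a time it ran from 0.06 (without WT 1) and 0.07 (without WT 4) to 0.25 (without WT 3), with limma adjusted p of 0.966 or above.

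Casp1 and Casp4 are neighbours on chromosome 9, with 0 protein-coding genes between them in RefSeq's GRCm38.p6 annotation, yet their log2 ratios were only weakly related over the 8 arrays (Pearson r of 0.11, a description). Casp1 minus Casp4 on the same array averaged 0.13 ± 0.23 in miR-223KO and 0.34 ± 0.28 in WT (SD, n = 4 each), and WT 1, at 0.74, was the highest of the 8.

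Il1b, the cytokine whose release defines the pathway, came nearest to parting the groups. It read 0.44, 0.26, 0.23 and 0.06 in miR-223KO 1 to 4, against 0.11, -0.03, -0.05 and 0.05 in WT 1 to 4. The livers of miR-223KO 1, 2 and 3 stood above every WT liver, and miR-223KO 4 lay below WT 1. The means were 0.25 ± 0.15 in miR-223KO and 0.02 ± 0.07 in WT (SD, n = 4 each). The log2 fold change of 0.22 (SE 0.17, 95% interval -0.14 to 0.59), a 1.17-fold difference, did not pass (limma adjusted p = 0.98), and with 1 array left out it ran from 0.16 (without miR-223KO 1) to 0.29 (without miR-223KO 4). Of all genes and probes tested, 30.7% had a larger change in either direction.

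The Il1b probe was printed 10 times on each array, which gives its measuring error. Over the 8 to 10 spots kept on an array, the standard error of the mean (SEM) was 0.07 to 0.14, against an SD between arrays of 0.15 in miR-223KO and 0.07 in WT. The SD between WT arrays lay within the range of these measuring errors. In Cy5 alone Il1b differed by 0.40 and in the Cy3 reference by 0.17.

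Il18, a cytokine stored as a precursor and cleaved by the same caspase, showed no such pattern. It read 0.00, -0.04, 0.15 and 0.26 in miR-223KO 1 to 4, against 0.28, -0.06, 0.15 and 0.22 in WT 1 to 4. The groups lay almost on top of each other, with means of 0.09 ± 0.14 in miR-223KO and 0.15 ± 0.15 in WT (SD, n = 4 each). The log2 fold change was -0.05 (SE 0.17, limma adjusted p = 0.996, 95% interval -0.42 to 0.32), which as a fold spans 0.745 to 1.25. With 1 array left out it ran from -0.12 (without WT 2) to -0.00814 (without WT 1). This probe too was printed 10 times, and the 7 to 10 spots kept gave an SEM of 0.05 to 0.13 against an SD between arrays of 0.14 in miR-223KO and 0.15 in WT.

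**Figure D2:**
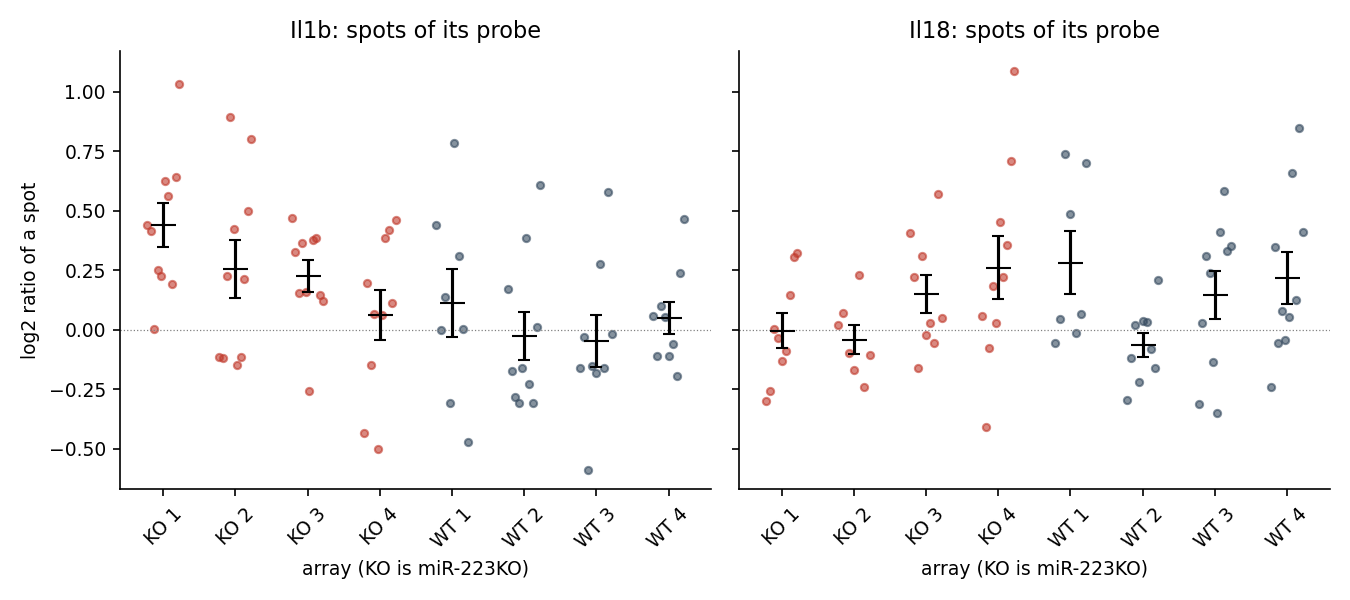
Points are the log2 ratios of single spots of the Il1b probe (left panel) and the Il18 probe (right panel) on each array, with the 4 miR-223KO arrays left of the 4 WT arrays, and bars give the mean and 1 SEM either way. Il1b means are 0.06 to 0.44 in miR-223KO and -0.05 to 0.11 in WT, and single spots of 1 array spread more widely than the array means.

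Il1rn encodes the receptor antagonist that blocks IL-1 signalling, and its WT values rested in part on dim spots. Probe A_52_P431159 read 0.29, 0.18, 0.08 and 0.34 in miR-223KO 1 to 4, against 0.45, 0.49, -0.28 and 0.02 in WT 1 to 4. WT 1 and WT 2 lay above every miR-223KO liver and WT 3 and WT 4 below every one of them. The means were 0.22 ± 0.11 in miR-223KO and 0.17 ± 0.37 in WT (SD, n = 4 each, with 2 of the 4 WT spots well above background), and the log2 fold change was 0.05 (SE 0.20, limma adjusted p = 0.996, 95% interval -0.37 to 0.48). The spot was well above background on all 4 miR-223KO arrays but only on WT 1 and WT 2, and in WT 3 and WT 4 its Cy5 was 1.18 and 1.26 times the local background.

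The authors' deposited table gives Il1rn a much larger change, 0.90 on the log2 scale or 1.86-fold. Its ratios are 0.38, 0.39, 0.19 and 0.77 in miR-223KO 1 to 4, against 0.49, 0.24, -1.39 and -1.20 in WT 1 to 4. The low values are again those of WT 3 and WT 4, and only 3.49% of the table's probes have a larger change. In limma on the deposited ratios the adjusted p was 0.841, and Il1rn was the 1 member with an unadjusted p under 0.05 there. The other Il1rn probe, A_51_P307166, was well above background on 1 miR-223KO array and no WT array and was not tested, and its deposited log2 fold change is 0.14.

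Il18bp, the secreted protein that binds and neutralises IL-18, had a pair of probes with the same sign. The tested probe, A_52_P577386, read -0.09, 0.35, 0.48 and -0.29 in miR-223KO 1 to 4, against 0.15, -0.37, 0.03 and 0.06 in WT 1 to 4. The livers of miR-223KO 2 and 3 stood above all WT livers and the other pair below WT 1, 3 and 4. The means were 0.11 ± 0.36 in miR-223KO and -0.03 ± 0.23 in WT (SD, n = 4 each), and the log2 fold change was 0.15 (SE 0.21, limma adjusted p = 0.985, 95% interval -0.30 to 0.59). With 1 array left out it ran from 0.02 (without miR-223KO 3) to 0.28 (without miR-223KO 4). The second probe, A_52_P577384, read 0.47, -0.16, 0.00 and -0.15 in miR-223KO 1 to 4, against -0.23, -0.22, -0.05 and 0.17 in WT 1 to 4. In the fit with every probe on its own, its log2 fold change was 0.12 (SE 0.19, limma adjusted p = 0.994). The arrays that were high differed between the probes, since miR-223KO 1 was highest by the second probe and miR-223KO 3 by the first.

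**Figure D3:**
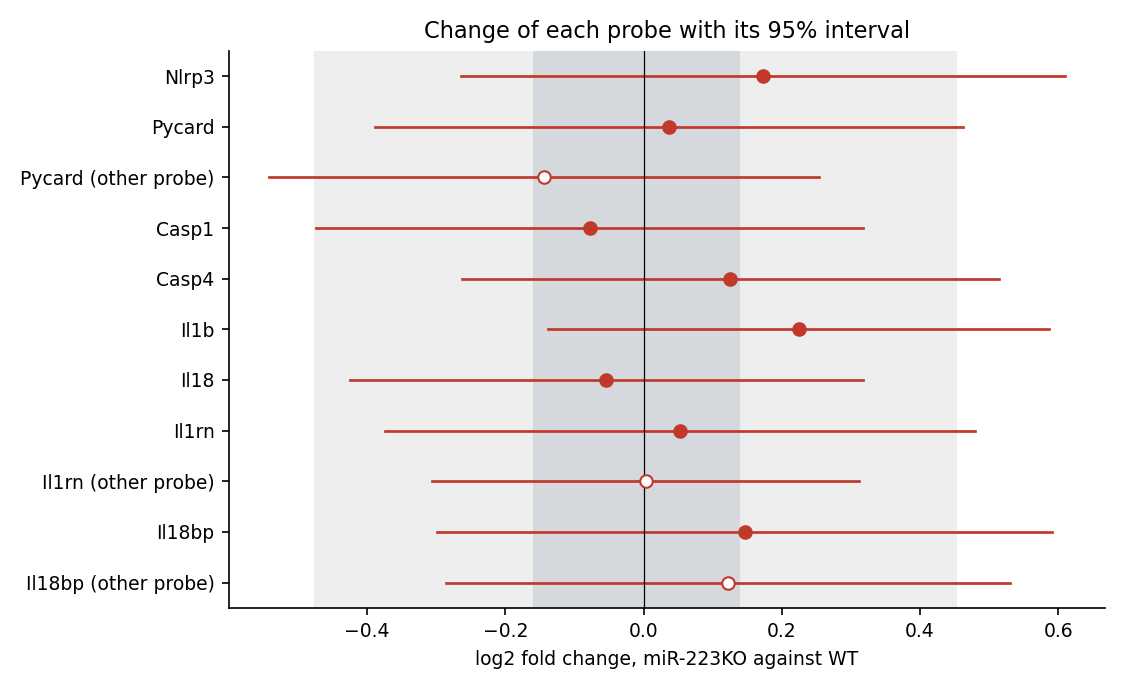
Each point is the log2 fold change, miR-223KO against WT, of 1 member probe, with its 95% interval as a line, filled for the tested probe of a gene and open for its other probe. The other Il1rn probe was well above background on 1 miR-223KO array and no WT array and came from a fit without the signal filter. Its short interval is therefore no measure of precision. The dark band holds the middle 50% of all 16755 genes and probes tested (-0.16 to 0.14) and the light band the middle 95% (-0.48 to 0.45), and every interval includes 0.

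Each cytokine was also set against its own antagonist on the same array, as a description without a test. Il1b minus Il1rn was 0.15, 0.07, 0.14 and -0.28 in miR-223KO 1 to 4, against -0.34, -0.52, 0.23 and 0.03 in WT 1 to 4. The values of WT 3 and WT 4 rest on Il1rn spots not well above background, so no mean is given for WT. Il18 minus Il18bp averaged -0.02 ± 0.44 in miR-223KO and 0.18 ± 0.09 in WT (SD, n = 4 each). The difference between its group means, -0.20, was smaller than the SD in miR-223KO. Between members, the highest Pearson r over the arrays was 0.601 for Pycard with Casp4 (7 arrays) and the lowest -0.607 for Casp4 with Il1rn (8 arrays), and all of these values share the same reference RNA and arrays. They are the extremes of all pairs of members over few arrays, and the Il1rn values include the dim spots of WT 3 and WT 4.

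For 8 of the 11 member probes WT 3 and WT 4 had the 2 lowest multiples of local Cy5 background, with Nlrp3 at 2.19 and 1.96 times and Il1b at 2.74 and 2.30 times. The exceptions, where miR-223KO 2 was among the 2 lowest, were the brighter Pycard probe, Casp4 and the second Il1rn probe. Over all spots that were not controls, 49.5% (WT 4) to 69.8% (WT 2) were well above background in Cy5, and miR-223KO 2 (53.0%), WT 3 (53.2%) and WT 4 were the 3 lowest. In Cy3, the reference channel, WT 3 (70.36%) and WT 4 (71.25%) were the highest of the 8 arrays and miR-223KO 2 (61.26%) the lowest. Of the 11 member probes, 8 were well above background on all 8 arrays, 10 on at least 4, and no spot was saturated. With these 3 arrays left out (an alternative added once the values were known), 0 members were called, and the log2 fold change was 0.31 for Nlrp3, 0.30 for Pycard and -0.23 for Il1rn.

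**Figure D4:**
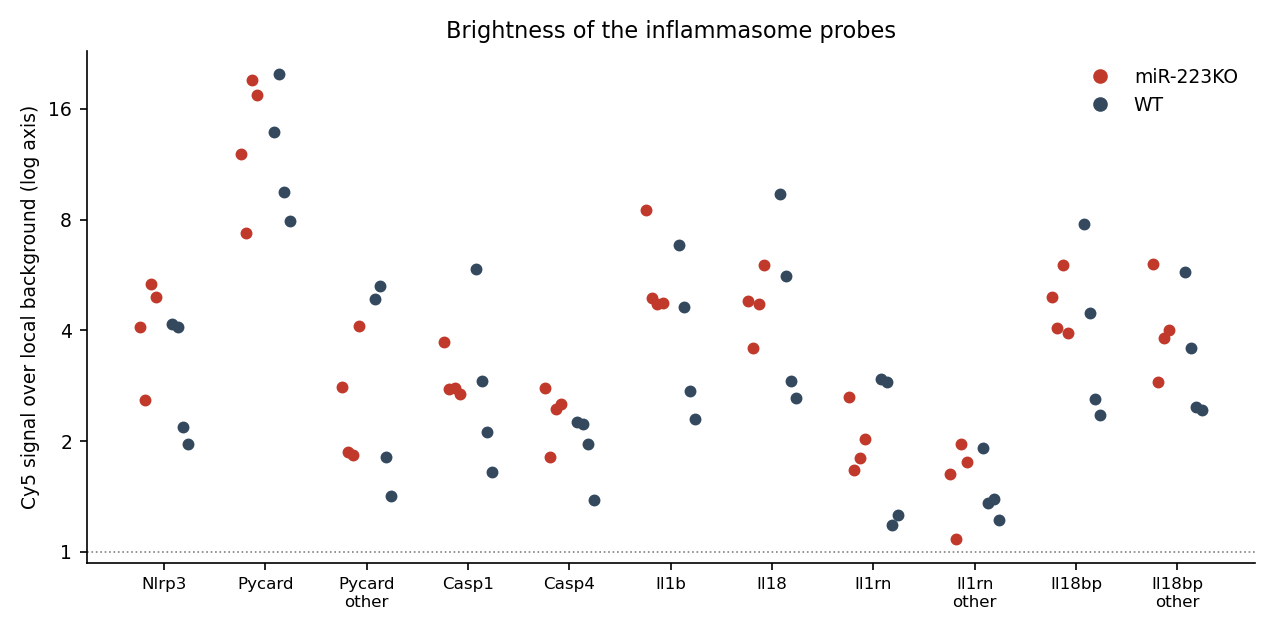
Each point is the Cy5 signal of 1 member probe on 1 array as a multiple of the local background, on a log axis, with miR-223KO left of WT and the dotted line at a multiple of 1. WT 3 and WT 4 give low points for most probes, and the Il1rn probes lie nearest to the line.

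The arrays lay on 2 slides, each with 2 miR-223KO and 2 WT samples. On slide 1 and slide 2 the log2 fold change was 0.31 and 0.14 for Il1b, 0.24 and 0.05 for Il18bp, and 0.07 and 0.27 for Nlrp3, so these 3 kept their sign. Casp1 did so too, at -0.12 and -0.04. The sign parted between slides for Casp4 (0.28 and -0.02), Il18 (-0.13 and 0.02) and Il1rn (-0.23 and 0.34), and Pycard had a value on slide 2 only (0.07) because of the flagged spot. No member was called within a slide or with slide as a block, where the lowest limma adjusted p was 0.744, for Il1rn on slide 2.

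**Figure D5:**
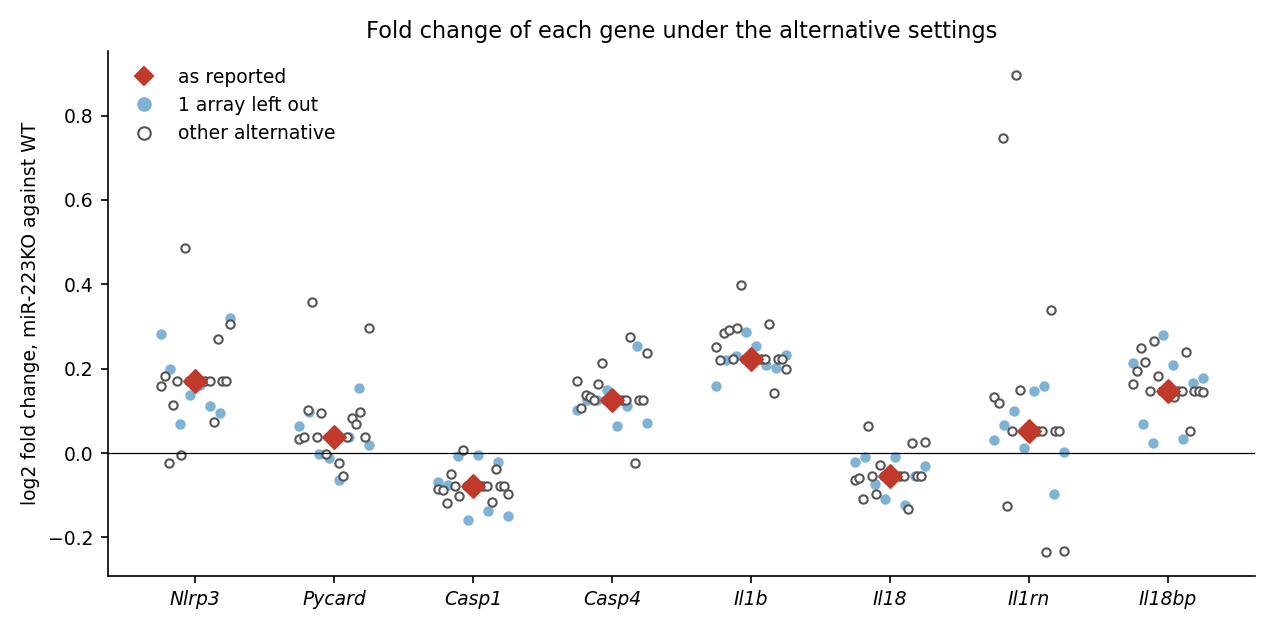
Points are the log2 fold change of each gene, miR-223KO against WT, as reported (diamond), with 1 array left out (filled) and under the other alternatives (open). Il1b (0.14 to 0.40) and Il18bp (0.02 to 0.28) stay above 0 throughout, and Il1rn has the widest range, from -0.23 to 0.90. Some of the open points repeat the reported value, since those alternatives cannot change it.

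Genes that act before, beside and after the inflammasome were read from 5 lists, and 0 of their tested members were called in limma in either direction. Among other sensors and adaptors, 8 of the 13 on the array were tested, 3 higher and 5 lower, with a median log2 fold change of -0.15. Nod1, a receptor for bacterial peptidoglycan, averaged -0.49 ± 0.41 in miR-223KO and 0.18 ± 0.42 in WT (SD, n = 4 each). Its log2 fold change was -0.67 (SE 0.24, limma adjusted p = 0.98). Nod1 was the 1 gene of the 8 tested with an unadjusted limma p under 0.05, beside 4.67% over all tested. Aim2, the sensor of cytosolic DNA, stood at -0.43 (SE 0.21, adjusted p = 0.98), with 0.60 ± 0.24 in miR-223KO and 1.03 ± 0.39 in WT (SD, n = 4 each). Nlrc4 was well above background on no array and was not tested.

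Regulators of Nlrp3 and genes of pyroptosis, the lytic death that gasdermin D carries out, numbered 17 tested of 21. They split into 12 higher and 5 lower, with a median of 0.11 and 0 at an unadjusted p under 0.05. Nek7, a kinase that binds Nlrp3 during assembly, stood at 0.11, Txnip, a thioredoxin-binding protein, at 0.09, the ATP-gated channel gene P2rx7 at 0.15 and Gsdmd at 0.11, each with an SE of 0.18 to 0.22. The smallest unadjusted p values were those of Sugt1, a co-chaperone (-0.40, limma adjusted p = 0.98), and Ripk3, a kinase of necroptosis (-0.29, limma adjusted p = 0.98).

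In the IL-1 family of cytokines and receptors 7 of 13 genes on the array were tested, with 1 higher, 6 lower and a median of -0.16. Il1r1, the signalling receptor for IL-1, stood at -0.23 (SE 0.20), its partner chain Il1rap at -0.09, the IL-18 receptor chain Il18r1 at -0.13, and Il1a at -0.16, all with an adjusted p of 0.98 or above. Il36a, an epithelial cytokine of the family, had the smallest unadjusted p of the list (-0.26, limma adjusted p = 0.98). Il33 and the decoy receptor gene Il1r2 were well above background on no array and were not tested.

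For priming through Toll-like receptors and NF-kB, 21 of 24 genes were tested, 14 higher and 7 lower, with a median of 0.06 and 0 at an unadjusted p under 0.05. Traf6, a ubiquitin ligase that relays receptor signals, stood at 0.29 (SE 0.19), Nfkb2 at 0.21 and the adaptor gene Myd88 at 0.02, and Nfkbia, the inhibitor that NF-kB induces, at -0.28 with an SE of 0.46. Only for Nfkb1 did the groups not overlap (0.13, adjusted p = 0.98), 1 of 21 beside the 3.09% over all genes. Tlr4, the lipopolysaccharide receptor, was well above background on 1 array and was not tested.

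Of 24 genes known to respond to IL-1 and NF-kB only 9 were tested, 4 higher and 5 lower, with a median of -0.05. Lcn2, an iron-binding acute phase protein made by hepatocytes and neutrophils, averaged 0.41 ± 0.72 in miR-223KO and -0.41 ± 0.93 in WT (SD, n = 4 each), a change of 0.82 (SE 0.40, limma adjusted p = 0.98). Steap4, a metalloreductase, stood at 0.31, Tnf at 0.02, the chemokine genes Ccl2 and Cxcl1 at -0.10 and -0.15, and the serum amyloid gene Saa3 at -0.31, with adjusted p of 0.98 or above. Il6 was well above background on no array. Saa1, Saa2, Hp, Orm1, Orm2 and Fgb were well above background on all 8, but too few of their spots were without an outlier flag. Neither Il6 nor any of these was tested, so the median of the list does not cover them.

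In whole liver, fewer cells of a type and less RNA per cell cannot be told apart. Markers of the cells known for the pathway were read beside the members, and none of them was called. Of 15 neutrophil markers tested, from 18 listed, 7 were higher and 8 lower, and their mean log2 ratio ran from -0.06 to 0.10 over miR-223KO arrays and from -0.13 to 0.08 over WT arrays. S100a9 stood at 0.61 (limma adjusted p = 0.98), and its partner S100a8 was well above background on 3 arrays only. Of 14 Kupffer cell markers 9 were higher, with mean log2 ratios of -0.02 to 0.29 in miR-223KO and -0.30 to 0.42 in WT. Of 13 monocyte and macrophage markers 10 were higher, at -0.16 to 0.39 in miR-223KO and -0.39 to 0.13 in WT. In that list Ccr2 was well above background on 2 arrays and Gpnmb on none. The median log2 fold changes of the neutrophil, Kupffer cell and monocyte and macrophage markers were -0.01, 0.20 and 0.27. Among the members the median was 0.09 and over all tested -0.01, with 48.2% of all tested higher. An unadjusted limma p under 0.05 fell to 1 neutrophil, 3 Kupffer cell and 1 monocyte and macrophage marker, beside 4.67% over all tested. The groups did not overlap for 1, 2 and 0 of the markers of these lists, beside 3.09% over all tested.

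In 2 other marker lists the array averages of the groups did not overlap. These 2 were picked out after the values of all lists were seen. In the lists of T and NK cells, B cells, endothelial cells, stellate cells and fibroblasts, and cholangiocytes the array averages overlapped. How often a list of such a size would part was not tested. The 9 dendritic cell and MHC class II genes tested averaged -0.04 to 0.49 in miR-223KO and -0.29 to -0.07 in WT, with 5 higher and 4 lower. The 5 higher were all of MHC class II antigen presentation (H2-Aa at 1.07, H2-Ab1 at 0.96, H2-Eb1 at 0.80, Cd74 at 0.59 and Ciita at 0.24). The 4 lower were the dendritic cell markers Flt3 (-0.15), Zbtb46 (-0.25), Xcr1 (-0.24) and Batf3 (-0.09), and none of the 9 was called (limma adjusted p of 0.494 or above). Of the 9, 4 had an unadjusted limma p under 0.05 and 2 had groups that did not overlap, all of them MHC class II genes. Over all tested these shares were 4.67% and 3.09%. Siglech was well above background on no array, Clec9a on 2 and Cd209a on 3. The 6 hepatocyte genes tested averaged 0.37 to 0.84 in miR-223KO and 0.85 to 1.89 in WT, all 6 lower in miR-223KO. Apob, Ttr, Serpina1c and Hnf4a had values on only 3 WT arrays, so the WT averages do not all cover the same genes. For that reason the parting of the groups on this list (0.84 against 0.85) cannot be read like for like. Of the 6, 2 had an unadjusted limma p under 0.05. On all 8 arrays 11 hepatocyte genes were well above background. The part of these lists in the members' values was not tested.

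For each member with 8 values, the tested genes whose log2 ratios followed it most closely over the 8 arrays were looked up among 12871 genes, as a description that pools both groups. With so few arrays and so many genes, some high values of r arise without any link, and no chance level was worked out. Nlrp3 was followed by Krt16, a keratin (Pearson r 0.975), Nhp2, a small nucleolar RNA-binding protein (0.953), and Cast, the calpain inhibitor (0.940). Il1b was followed by 9830163H01Rik (0.953), Pgm3, an enzyme of amino sugar synthesis (0.943), and Tmem127 (0.929). The genes nearest to Il1rn were Myd88 (0.979), S100pbp (0.969) and Zp3, an egg coat protein (0.968). The Il1rn values include those of WT 3 and WT 4, whose spots were not well above background.

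Casp1 lay nearest to Eif4a3, an RNA helicase (0.960), Raph1 (0.958) and Cerox1 (0.945), and Casp4 to the nuclear pore gene Nup98 (0.947), the laminin gene Lamb2 (0.935) and the complement gene C1qa (0.930). Il18 lay nearest to Nkd2 (0.959), Rfxap, a regulator of MHC class II genes (0.958), and 1700026J12Rik (0.952), and Il18bp to Skp2 (0.966), Uhrf1 (0.946) and Ereg (0.941). None of these 21 genes passed the test between the groups (limma adjusted p of 0.98 to 0.999), and no 2 members shared a gene among their nearest 3.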

How the data were processed

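The deposited scanner files hold spot and background intensity, per the file headers, from 8 Agilent arrays (design 014868, mm9 grid, protocol GE2_1200_Jun14, Feature Extraction 12.0.3.1), and a log10 ratio of processed Cy5 over Cy3. In the authors' table, with 40646 probes, the deposited log2 ratios match those processed signals (99.6% of values within 0.001), beside the authors' log2 fold change, linear fold change and a signed fold held as a score. Dyes were not swapped.

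Median signals were background-corrected with normexp (offset 50) and loess-normalised within each array in limma 3.58.1 under R 4.3.3, which draws the ratios of dim spots towards 0. Control spots and outlier-flagged spots (2.0% to 5.67% per array) had no weight, and flagged spots were left out. Flagged local backgrounds were set to the median of the unflagged ones on that array and channel. Spots of a probe were averaged. Testing required Cy5 well above background on 4 or more of 8 arrays and 3 or more unflagged values per group, and each gene was read by its brightest probe. Groups were compared two-sided with lmFit and eBayes, with p-values adjusted by Benjamini-Hochberg over 16755 genes and probes (threshold 0.05). The other probes of Pycard and Il18bp were read from a separate fit with every probe on its own, adjusted over 23930 probes. The interval of the other Il1rn probe came from such a fit without the signal filter. The fit was tested on simulated data with planted changes larger than that of any member, which says nothing of the power to see changes as small as theirs. The number of arrays limits the precision (median SE 0.21). Channels were separated after Aquantile normalisation.

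The members and the gene lists were chosen with earlier results of these data known. All 8 members are named by every probe. Of each pathway list the text names the 2 tested genes with the smallest unadjusted p and members of a fixed set, with the 3 nearest genes of each member. Nfkb1, S100a9 and the tested dendritic cell and MHC class II genes were named after their values were seen. Saa2, Hp, Orm1, Orm2 and Fgb were named after it was seen that they could not be tested. Tried alternatives were the background correction, normalisation, signal filter, flags, probe choice, slide and replicate blocks and each array left out.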

Additional observations from a re-analysis of the deposited data

How the results depend on the processing

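No member and no gene of the 5 pathway lists was called under any of the 26 alternatives, among which 0 members, or 1 with the deposited ratios, had an unadjusted p under 0.05. Il1b (0.14 to 0.40) and Il18bp (0.02 to 0.28) stayed above 0 in all 26. Some of these left both fold changes as reported (0.224 and 0.146) and so could not turn the sign. Among them were Aquantile normalisation, the slide and replicate blocks, eBayes with trend and the lack of a signal filter. Nlrp3 turned to -0.0243 with Agilent's processed signals and loess and to -0.00411 with the deposited ratios. Pycard turned to -0.00276 in Cy5 alone, -0.0237 with flagged spots kept and -0.0537 as the mean of its probes, and Casp1 to 0.00673 in Cy5 alone. Casp4 turned to -0.0239 within slide 2. Il18 turned to 0.0632 with median centring, 0.0245 within slide 2 and 0.0271 without the 3 arrays of fewest spots above background in Cy5. Il1rn turned to -0.125 with median centring, -0.234 within slide 1 and -0.232 without those 3 arrays. With each array left out in turn Pycard ran from -0.0631 to 0.154 and Il1rn from -0.097 to 0.158 (below 0 without WT replicate 3), and the calls over all genes from 2 to 4 (4 without miR-223KO replicate 1). The 2 calls over all genes became 4 with an offset of 16 and without those 3 arrays, which were chosen after seeing the data. They became 1 with processed signals and loess, with median centring, with the deposited ratios, in Cy5 alone, with flagged spots kept and with the mean of probes. Within slide 1 and slide 2 limma called 0, with 1210 and 1232 at an unadjusted p under 0.05. The causes were not tested. Same-numbered samples did not deviate together (r of -0.0273 to 0.0584 over 14733 genes), and with the replicate block 2 genes and 0 members were called. Pycard had no value within slide 1, and Il1rn none when all 8 arrays had to be above background. The lowest multiple of local background among the members, 1.08, was that of an Il1rn probe.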
